A study of Drosophila melanogaster with 2 samples.

Results

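The genes described here are those of the translation initiation factors (eIF) and elongation factors (eEF) of Drosophila melanogaster, taken by symbol alone as every protein-coding gene whose name begins with eIF or eEF. They number 52, of which 8 are elongation factor genes and 44 are initiation factor genes, among 13945 protein-coding genes on the major chromosome arms. The measurement was the genomic position of the CG30020 product, obtained with chromatin immunoprecipitation and sequencing (ChIP-seq). The material was whole embryos, 0 to 24 h old and of both sexes. Every sample came from a transgenic line that stably expresses CG30020 with enhanced green fluorescent protein (GFP) at its C terminus, and the tagged protein was recovered with an antibody against GFP. The samples form 1 group of 2 biological replicates, numbered 2 and 3, and both came from the same donor line, so the data hold no contrast between conditions. The sources used here do not say what drives the transgene or whether untagged CG30020 remains. Since the embryos were taken whole, the lists average over all cell types and all embryonic ages.

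Translation initiation factors bring the initiator transfer RNA, the small ribosomal subunit and the capped end of an mRNA together and find the start codon. Elongation factors then deliver each aminoacyl-tRNA to the ribosome and move the ribosome along the mRNA. Most of these proteins are needed in every growing cell, while several Drosophila factors exist as paralogues of which some serve mainly the male germ line.

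A gene was counted as bound when a peak summit was no more than 500 bp from an annotated transcription start site (TSS) of that gene. The main list was the authors' set thresholded by irreproducible discovery rate (IDR), which keeps peaks that rank alike in both replicates and held 5048 peaks. Those peaks were the 5048 strongest of the authors' list from the pooled replicates. The relaxed lists of the pooled replicates, replicate 2 and replicate 3 held 30000 peaks each, so that their length carries no information on sequencing depth, which is unknown here. The authors' signal value has no stated scale. It is therefore given as a multiple, namely the signal of the gene's strongest promoter summit divided by that of the median IDR peak, or, in each replicate, by the median of the peaks that match IDR peaks.

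The sequence around the summit is shown for 10 bound genes. They were picked, among genes whose summit lies outside annotated exons and whose sequence is printed here, as examples with strong signals, with a motif match described below or, for eIF4G2, as the paralogue of a strong gene. The stronger eEF5 and eEF1alpha1 are not among them. Each run covers 50 bases on either side of the summit, cut where an annotated exon begins, and reads 5′ to 3′ on the gene's own strand. Capitals mark TATCGATA, the DNA replication-related element (DRE), a promoter motif of many housekeeping genes that is its own reverse complement. Sequences are from the Release 6 genome of RefSeq and coordinates are on dm6.
eIF4G1, chr4:930716-930806, minus strand: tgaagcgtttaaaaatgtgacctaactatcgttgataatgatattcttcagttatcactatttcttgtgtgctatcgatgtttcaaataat
eIF4B, chr3L:27858298-27858398, minus strand: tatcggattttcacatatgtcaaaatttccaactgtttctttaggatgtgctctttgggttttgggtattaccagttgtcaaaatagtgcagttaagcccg
eEF1delta, chr2L:10232389-10232489, plus strand: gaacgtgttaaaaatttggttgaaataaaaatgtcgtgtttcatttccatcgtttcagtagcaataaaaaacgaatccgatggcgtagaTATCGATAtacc
eIF5, chrX:15992132-15992232, minus strand: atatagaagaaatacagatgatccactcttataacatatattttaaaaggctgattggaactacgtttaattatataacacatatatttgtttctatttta
eIF4EHP, chr3R:24109135-24109235, minus strand: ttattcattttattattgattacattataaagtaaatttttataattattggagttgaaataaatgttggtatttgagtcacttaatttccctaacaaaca
eIF3a, chr3R:4433896-4433964, minus strand: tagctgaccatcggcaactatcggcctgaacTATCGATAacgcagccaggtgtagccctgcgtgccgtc
eEF1gamma, chr3R:29220086-29220171, plus strand: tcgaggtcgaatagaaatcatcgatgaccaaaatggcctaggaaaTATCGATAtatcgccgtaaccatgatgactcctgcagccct
eIF4A, chr2L:5981422-5981522, plus strand: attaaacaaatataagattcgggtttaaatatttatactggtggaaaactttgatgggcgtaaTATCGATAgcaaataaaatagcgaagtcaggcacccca
eIF3f1, chr3R:4714183-4714279, minus strand: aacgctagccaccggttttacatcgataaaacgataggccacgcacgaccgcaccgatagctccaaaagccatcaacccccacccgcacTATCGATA
eIF4G2, chr3R:23819238-23819324, minus strand: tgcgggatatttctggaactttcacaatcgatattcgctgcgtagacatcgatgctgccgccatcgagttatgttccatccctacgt
The DRE stood in 5 of these 10 windows. The shorter core ATCGAT was present without a full DRE in the windows of eIF4G1 and eIF4G2, whereas the windows of eIF4B, eIF5 and eIF4EHP held neither.

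Further DRE sites lay in the promoters, counted from 250 bp before to 50 bp after a TSS, and 9 of them are shown with 11 bases on either side because they include unbound genes of the eIF2 and eIF2B complexes.
eIF4B, chr3L:27858272-27858301, minus strand: cccgaaataaaTATCGATAacgatatagga
eIF2A, chr3L:21824865-21824894, plus strand: ttactatcgctTATCGATAcaccgcgtaca
eIF1A, chr3R:18274452-18274481, plus strand: atgatgatagaTATCGATAgctttagcggt
eIF3l, chr3L:12146097-12146126, minus strand: agtagtatcatTATCGATAgttggtcacac
eIF2alpha, chrX:16446988-16447017, minus strand: acgcaattaaaTATCGATAacaccactgtc
eIF2gamma, chr3R:15263449-15263478, minus strand: gattagagcacTATCGATAggcattgtcgg
eIF2gamma, chr3R:15263517-15263546, minus strand: gggcggcactcTATCGATAcgcatcgcagt
eIF2Bbeta, chrX:2704588-2704617, plus strand: cgcctgccgccTATCGATAacattgctcgg
eIF4E6, chr3R:29027214-29027243, minus strand: atcacgcgataTATCGATAtgtttcgattg
The eIF2gamma gene was the only eIF or eEF gene with more than 1 DRE inside its promoter windows.

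Of the 52 genes, 31 were bound in the IDR list, or 59.6%, where all protein-coding genes gave 30.7% (4284 of 13945). The 5048 strongest peaks of replicate 2 alone bound 33 genes, or 63.5%, where all protein-coding genes gave 29.8%. Those of replicate 3 alone bound 29, or 55.8%, where all protein-coding genes gave 30.8%. In each of these lists the share of the eIF and eEF genes was above the background, and the counts of the replicates differed by 4 genes. In the relaxed pooled list 36 genes (69.2%) had a promoter summit, where all protein-coding genes gave 46.3%. The relaxed lists of the replicates had 40 (76.9%) in replicate 2, where all gave 49.4%, and 36 (69.2%) in replicate 3, where all gave 48.0%. No test was made of any of these shares, because the genes were chosen with results of these data known.

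**Figure D1:**
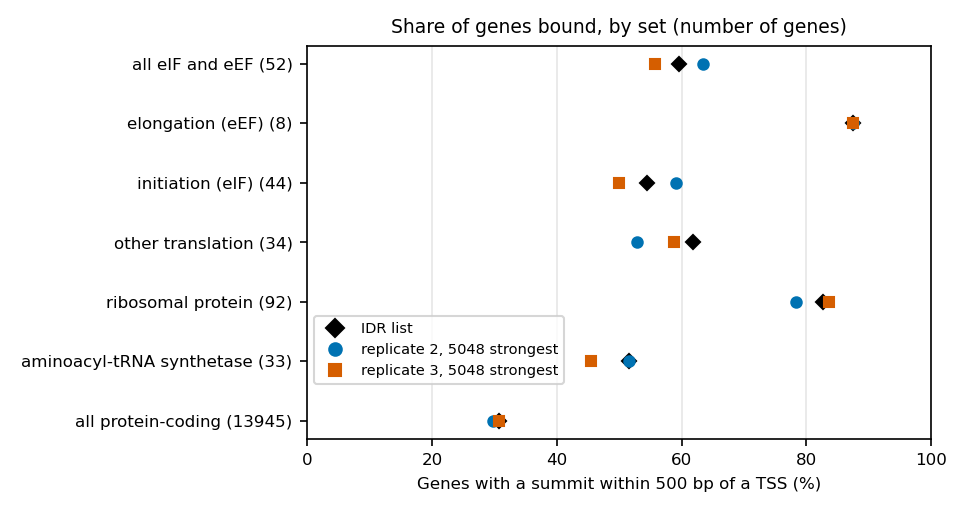
Share of genes (%, horizontal axis) with a summit within 500 bp of a TSS, for each gene set down the page with its number of genes in parentheses. Black diamonds are the IDR list, blue circles and orange squares the 5048 strongest peaks of replicate 2 and of replicate 3. Elongation factor genes are at 87.5% in every list, initiation factor genes between 50% and 59.1%, and all protein-coding genes near 30.7%.

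Elongation factor genes were bound more completely than initiation factor genes. Of 8 elongation factor genes 7 were bound in the IDR list and in each replicate's strongest peaks, a share of 87.5%. Of 44 initiation factor genes 24 were bound in the IDR list (54.5%), 26 in replicate 2 (59.1%) and 22 in replicate 3 (50%). The median multiple was 1.92 over the 7 bound elongation factor genes (1.79 in replicate 2 and 1.72 in replicate 3) and 1.09 over the 24 bound initiation factor genes (0.917 in replicate 2 and 0.922 in replicate 3). With 8 genes on one side, a change of 1 gene moves the elongation share by more than 10 percentage points, and the difference was not tested.

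The strongest promoter summit of the whole IDR list belonged to eEF5, which encodes the hypusine-carrying factor formerly named eIF5A that helps ribosomes through difficult peptide bonds. Its summit had 93.1 times the median IDR signal, 97.2 times in replicate 2 and 75.5 times in replicate 3, and it ranked 1 in all of these lists. It lay 38 bp upstream of the TSS on chromosome arm 2R at position 24057760, inside a peak of 7963 bp that was the widest at any eIF or eEF gene. The 3 lists placed this summit within 4 bp of each other in position, 38, 35 and 39 bp upstream in the IDR list, replicate 2 and replicate 3.

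The subunits of eEF1, the complex that delivers aminoacyl-tRNA and recycles its GTP-bound form, were all bound. The eEF1delta gene, for a subunit of the nucleotide exchange part, had 14.7 times the median, with 18 in replicate 2 and 10.8 in replicate 3. Its partner gene eEF1beta, for the other exchange subunit, had 1.55 times, with 1.69 in replicate 2 and 1.27 in replicate 3. The gene Psi also has a TSS within 500 bp of the eEF1beta summit, although that of eEF1beta is nearest. The structural subunit gene eEF1gamma had 1.65 times, with 1.05 in replicate 2 and 1.69 in replicate 3. Of the 3, only eEF1gamma was lower in replicate 2 than in replicate 3, and its difference of 0.69 (log2, replicate 3 minus replicate 2) was the highest among the bound eIF and eEF genes. The tRNA-carrying subunit has 2 genes. The eEF1alpha1 gene had 10.9 times the median (11.8 in replicate 2 and 8.72 in replicate 3) and 3 separate IDR summits near its 4 TSSs, at -122, -98 and 82 bp. The eEF1alpha2 gene had 1.07 times (0.898 in replicate 2 and 1 in replicate 3) and 1 summit at -69 bp.

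The translocase gene eEF2, whose product moves the ribosome by a codon, had 1.92 times the median, with 1.79 in replicate 2 and 1.72 in replicate 3. The elongation factor gene without an IDR summit was eEFSec, whose product delivers selenocysteine tRNA. It had no promoter summit in any of the relaxed lists either, and the nearest IDR summit was 22022 bp from its TSS.

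**Figure D2:**
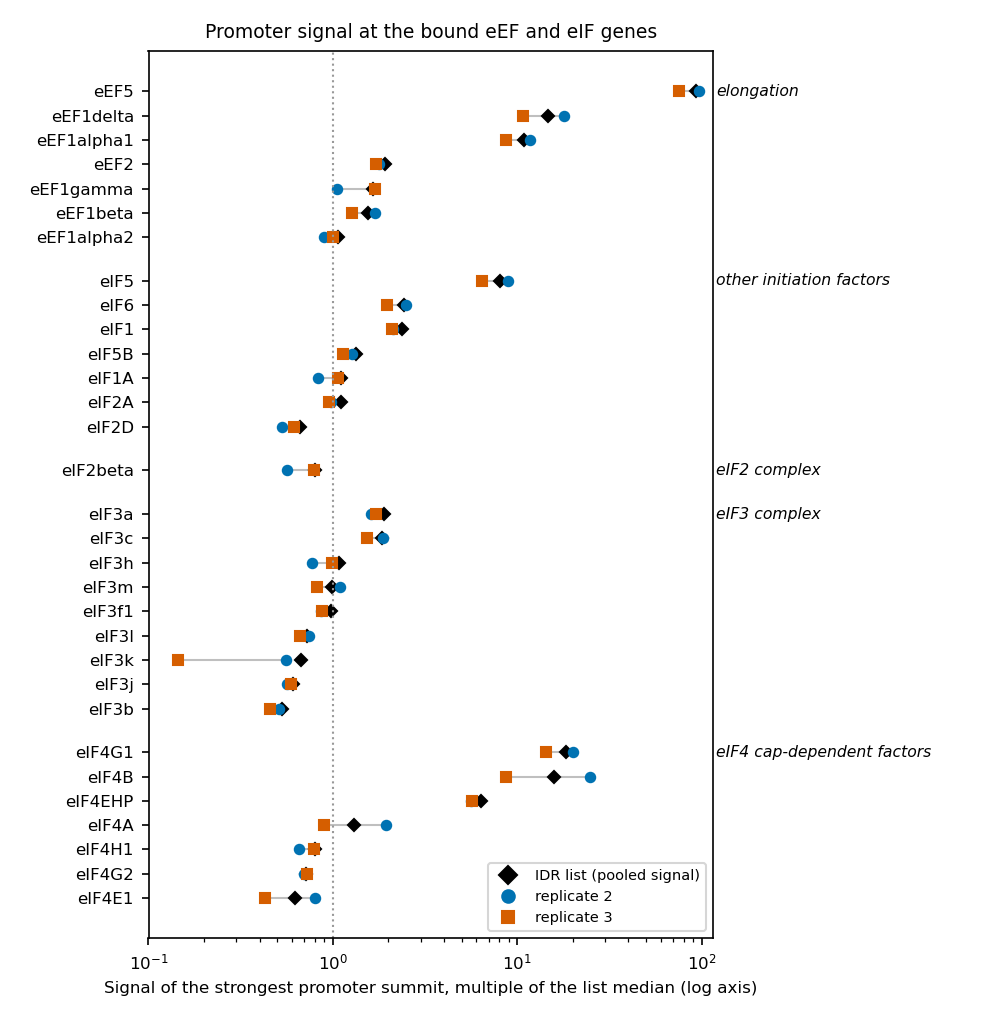
Signal of the strongest promoter summit (horizontal log axis, multiple of the list median) at each of the 31 bound eEF and eIF genes, grouped by role down the page. Black diamonds are the IDR list, blue circles replicate 2, orange squares replicate 3, grey lines join the replicates, and the dotted line is the median peak. The eEF5 gene stands apart with 75.5 to 97.2, many genes lie near 1, and eIF3k has the widest gap between replicates.

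In the cap-dependent group, whose products bind the capped end of an mRNA and unwind it, 7 of 13 genes were bound. All protein-coding genes gave 30.7%, and the difference was not tested. High signals stood at 3 of the 7. The eIF4G1 gene, for the scaffold that joins the cap-binding protein to the helicase, had 18.4 times the median, with 20.1 in replicate 2 and 14.4 in replicate 3. It is the only eIF or eEF gene on chromosome 4, where 77.5% of all protein-coding genes were bound (62 of 80). The eIF4B gene, for a stimulator of the helicase, had 15.8 times, with 24.7 in replicate 2 and 8.68 in replicate 3. The difference between replicates at eIF4B was -1.51 (log2, replicate 3 minus replicate 2), although its rank was 107 in replicate 2 and 191 in replicate 3. The eIF4EHP gene, for a cap-binding repressor that acts on patterning mRNAs in the embryo, had 6.34 times, with 5.63 in replicate 2 and 5.67 in replicate 3. That summit lay 225 bp upstream of eIF4EHP and 151 bp from the TSS of the divergent neighbour CG18428, so it cannot be assigned to 1 of the genes.

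The remaining bound genes of the group were near or below the median peak. The helicase gene eIF4A had 1.3 times, with 1.95 in replicate 2 and 0.892 in replicate 3, a log2 difference of -1.13. The principal cap-binding protein gene eIF4E1 had 0.621 times, with 0.801 in replicate 2 and 0.431 in replicate 3, and in replicate 3 it fell outside the 5048 strongest peaks. In the IDR list its summit, at 35 bp, was the only one of the 31 that lay downstream of the TSS. The helicase cofactor gene eIF4H1 had 0.804 times, with 0.654 in replicate 2 and 0.786 in replicate 3, and its summit was nearer to the divergent gene CG34015. The eIF4G2 gene, a paralogue of the scaffold needed in spermatocytes, had 0.719 times, with 0.696 in replicate 2 and 0.723 in replicate 3, and it shares its start region with CG33111.

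All 7 genes outside the eIF2, eIF2B, eIF3 and eIF4 groups were bound, where all protein-coding genes gave 30.7%, a difference that was not tested. The eIF5 gene, for the protein that triggers GTP hydrolysis by eIF2 at the start codon, had 8.11 times the median, with 8.88 in replicate 2 and 6.42 in replicate 3. Its summit was equally near to CG46312 and also within reach of the homeobox cofactor gene exd. The eIF6 gene, whose product keeps the large subunit from joining too early, had 2.42 times, with 2.49 in replicate 2 and 1.97 in replicate 3. At eIF6 the nearest TSS was that of the antisense RNA asRNA:CR45928. The eIF1 gene, for a guardian of start codon choice, had 2.36 times, with 2.12 in replicate 2 and 2.09 in replicate 3, and its strongest summit was 143 bp from the ribosomal protein gene RpL28 and at -238 bp relative to eIF1 itself. A further IDR summit stood 36 bp upstream of eIF1, with 1.9 times the median.

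The other members of that set were close to the median peak. The eIF5B gene, for the GTPase of subunit joining, had 1.34 times, with 1.27 in replicate 2 and 1.13 in replicate 3. The eIF1A gene, whose product works beside eIF1, had 1.11 times, with 0.827 in replicate 2 and 1.06 in replicate 3. The eIF2A gene, for an alternative initiator tRNA carrier, had 1.11 times, with 0.972 in replicate 2 and 0.953 in replicate 3. The eIF2D gene, whose product also acts in ribosome recycling, was lowest of the 7 at 0.663 times, with 0.531 in replicate 2 and 0.613 in replicate 3.

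The eIF2 trimer carries the initiator tRNA and eIF2B reloads it with GTP, a step that stress kinases block. Of 3 eIF2 genes only eIF2beta was bound in the IDR list, with 0.804 times the median, 0.562 in replicate 2 and 0.793 in replicate 3. None of the 5 eIF2B genes had an IDR summit at its promoter. With 3 and 5 genes, these counts are too small to be read against the background of 30.7%.

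At eIF2gamma the lists diverged. Each replicate had a promoter summit strong enough to stand among its own 5048 strongest peaks, at 0.587 times the median and rank 4225 in replicate 2 and at 0.588 times and rank 4386 in replicate 3. These summits were 30 bp apart, and the summit of replicate 3 lay 1 bp from the centre of a DRE shown above, that of replicate 2 at 31 bp from a DRE. In the pooled list, however, the promoter summit stood 200 bp upstream of the TSS with 0.219 times the median at rank 10462. The gene was therefore unbound in the IDR list although both replicates called it.

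The alpha subunit gene eIF2alpha had a summit in all 3 relaxed lists, at 0.417 times the median in the pooled list, 0.431 in replicate 2 and 0.275 in replicate 3. Its pooled rank of 6236 put it outside the IDR list. At eIF2Bbeta the promoter summits were faint, with 0.0941 in the pooled list, 0.234 in replicate 2 and 0.0769 in replicate 3. Their deposited −log10 q values were 0.51, 1.71 and 0.44 in the same order. The eIF2Balpha gene had a summit in replicate 2 alone, with 0.667 times the median at rank 3714, and none in replicate 3 or the pooled list. No relaxed list had a promoter summit at eIF2Bgamma, eIF2Bdelta or eIF2Bepsilon.

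The 16 genes of eIF3, the large scaffold that holds the small subunit and recruits the mRNA, were split. IDR summits stood at 9 of them (a, b, c, f1, h, j, k, l and m), and 7 had none (d1, d2, e, f2, g1, g2 and i). All protein-coding genes gave 30.7%, and the difference was not tested. The subunit gene eIF3a had the highest multiple at 1.89, with 1.61 in replicate 2 and 1.71 in replicate 3. The divergent neighbour CG1074 also has a TSS within 500 bp of the eIF3a summit, although that of eIF3a is nearest. Next was eIF3c, whose product is another core subunit, at 1.85, with 1.88 in replicate 2 and 1.54 in replicate 3. The lowest was eIF3b at 0.533, with 0.511 in replicate 2 and 0.455 in replicate 3, and its rank of 5002 was close to the end of the IDR list. At eIF3k the replicates disagreed most, with 0.67 in the IDR list, 0.557 in replicate 2 and 0.144 in replicate 3. The eIF3k summit of replicate 3 was 256 bp from that of replicate 2, and its deposited −log10 q value was 1.31. In the same replicate 3 list the strongest promoter summits of the other bound eIF and eEF genes held 4.29.

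Among the unbound eIF3 genes, eIF3g1 had faint summits in all lists (0.183 in the pooled list, 0.186 in replicate 2 and 0.168 in replicate 3) and so did eIF3f2 (0.114 in the pooled list, 0.163 in replicate 2 and 0.135 in replicate 3). The deposited −log10 q at eIF3f2 was 0.72 in the pooled list, 0.75 in replicate 2 and 1.18 in replicate 3, and its replicate summits were 298 bp apart. At eIF3g1 it was 1.79, 1.02 and 1.80 in the same order. The eIF3e gene had a summit in replicate 2 alone at 0.384 times the median, and eIF3i in replicate 2 alone at 0.0846 times. Their −log10 q values were 3.63 and 0.11, so the eIF3i call had little confidence. No list had a summit at eIF3d1, eIF3d2 or eIF3g2.

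Paralogues were compared in 8 families of 21 genes, of which 10 were bound, where all protein-coding genes gave 30.7%. Every gene was bound in 3 families (eIF4G, eEF1alpha and the eEF1beta and eEF1delta pair), none in 2 (eIF3d and eIF3g), and some in 3 (eIF4E, eIF4H and eIF3f). In each of the fully bound families the copies had unequal signals in every list. At the scaffold genes eIF4G1 had 18.4 times the median where eIF4G2 had 0.719, and in replicate 3, where the gap was narrower, the values were 14.4 and 0.723. Of the tRNA carriers eEF1alpha1 had 10.9 where eEF1alpha2 had 1.07, and of the exchange subunits eEF1delta had 14.7 where eEF1beta had 1.55. The stronger copies lay in 100 kb bins of which IDR peaks cover a larger part. That part was 19.3% at eIF4G1 and 1.41% at eIF4G2, and 39.4% at eEF1delta and 2.3% at eEF1beta. At eEF1alpha1 and eEF1alpha2 it was 6.14% and 3.78%. What the density of peaks there adds to the unequal signals was not tested.

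The eIF4E family of cap-binding proteins has 7 genes here. The general cap-binding gene eIF4E1 and the repressor gene eIF4EHP were bound, and eIF4E3, eIF4E4, eIF4E5, eIF4E6 and eIF4E7 were not. The eIF4E3 product acts in the male germ line. Of the unbound copies, eIF4E6 had a summit in replicate 2 alone, at 0.404 times the median and rank 6129, and the other 4 had none in any list. Their distances to the nearest IDR summit were 31222 bp for eIF4E3, 77609 bp for eIF4E4, 17244 bp for eIF4E5 and 52828 bp for eIF4E7. In the mixed families the bound copy was eIF4H1, with eIF4H2 lying 82366 bp from the nearest IDR summit, and eIF3f1, at 0.972 times (0.862 in replicate 2 and 0.869 in replicate 3). Of the 31 genes in no family 21 were bound, where all protein-coding genes gave 30.7%, and these counts were not tested.

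**Figure D3:**
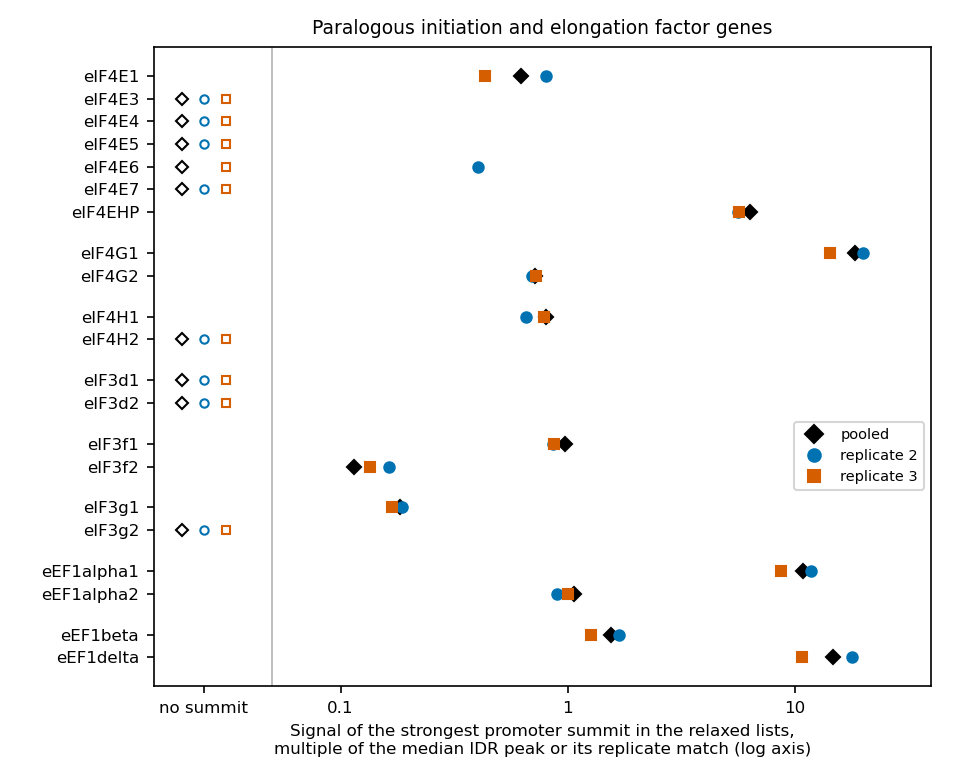
Signal of the strongest promoter summit (horizontal log axis, multiple of the median IDR peak or its match in a replicate) at the 21 paralogous genes, by family down the page. Filled black diamonds are the relaxed pooled list, blue circles replicate 2 and orange squares replicate 3, and open symbols left of the grey line mark a list without a promoter summit. Among the eIF4E genes only eIF4E1, eIF4E6 and eIF4EHP have any summit.

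In all, 21 genes had no IDR summit at a promoter. Of these, 12 had no promoter summit in any list, or 57.1%, where 64.4% of all unbound protein-coding genes had none (6223 of 9661). A further 5 had a summit in all 3 relaxed lists, and 4 in replicate 2 only. Several of these were calls of low confidence, with deposited −log10 q values down to 0.11 at eIF3i. The distance rule decided few cases. At eIF4A a summit of 1.86 times the median stood at -502 bp, just outside the limit, beside the weaker one at -292 bp that made the gene bound. The nearest unbound gene was eIF2Bbeta, with an IDR summit of 5.24 times the median at -681 bp. After it came eIF2Bgamma at 1273 bp, eIF3d1 at 1352 bp, eIF3g1 at 1360 bp and eIF2alpha at 1466 bp. Farthest from any IDR summit was eIF3d2, at 155702 bp, and eIF3g2 was 80209 bp from one.

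Over the 31 bound genes the median multiple was 1.3 (1.09 in replicate 2 and 1.06 in replicate 3), where all bound protein-coding genes had 1.13 (1.01 in replicate 2 and 1.04 in replicate 3). The middle of the eIF and eEF genes was thus near that of bound genes in general, with a few far above it. Only 6 ranked within the strongest 250 IDR peaks and 9 within the strongest 1000. The log2 difference between replicates (replicate 3 minus replicate 2) had a median of -0.16 and an SD of 0.563 over the 31 genes, where all bound genes measured in both had an SD of 0.524. It was negative at 19 of the 31 genes and within 0.5 of zero at 25. Both replicates had the gene among their 5048 strongest peaks in 28 cases. Across these 31 genes the log2 signals of the replicates had a Pearson correlation of 0.958 and a Spearman correlation of 0.927, as a description only, since both lists were called against the same control alignment.

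Summits at these genes lay close to the start site. The median position was -69 bp relative to the TSS (-71 in replicate 2 and -62 in replicate 3), where all bound protein-coding genes had -116 bp (-117 in replicate 2 and -114 in replicate 3). These sets differ in make-up. A divergent neighbour was present at 13 of the 31 genes and at 2536 of all 4284 bound genes. There were 2 or more TSSs at 18 of the 31 and at 1613 of the 4284. What this adds to the difference in position was not tested. Upstream of the TSS were 30 of the 31 summits, or 96.8%, and 90.1% over all bound genes. By the gene's own annotation 24 summits were outside the gene, 6 in a 5′ UTR and 1 in an intron, that of eEF1alpha1. Summits of the same gene in the 2 replicates were a median of 28 bp apart, and within 50 bp at 24 of 31 genes. The peaks had a median width of 438 bp, close to the 470 bp of the IDR list, and ranged between 131 bp at eIF2beta and 7963 bp at eEF5.

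**Figure D4:**
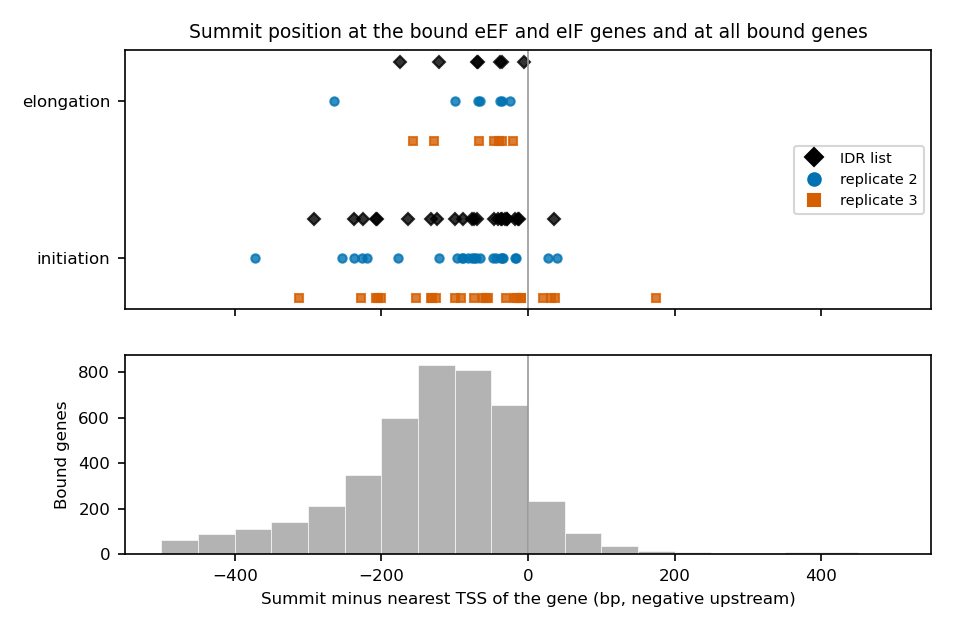
Position of the strongest promoter summit relative to the nearest TSS of the gene (horizontal axis, bp, negative upstream), above for the 7 bound elongation and 24 bound initiation factor genes and below as the number of all bound protein-coding genes per bin. Black diamonds are the IDR list, blue circles replicate 2, orange squares replicate 3. The median is -69 bp at the eIF and eEF genes and -116 bp at all bound genes.

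Position in the genome was considered because neighbouring genes can share a summit. Of 21 eIF and eEF genes with a divergent neighbour 13 were bound (61.9%), where all divergent genes gave 61.3%. Of the 31 without one 18 were bound (58.1%), where all such genes gave 17.8%. Where a summit counted for the gene of its nearest TSS only, 10 of the 21 divergent genes were bound (47.6%), where all divergent genes gave 35.7%, and 18 of the 31 others (58.1%), where all such genes gave 16.6%. The share of the eIF and eEF genes at divergent promoters was thus beside that of all genes when a summit counted for both genes of a pair, and above it by the nearest TSS. At 27 of the 31 bound genes the TSS nearest to the summit was the gene's own, and at 14 another gene also had a TSS within 500 bp.

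Genes with several start sites offer more chances of a nearby summit. Of 20 eIF and eEF genes with 2 or more TSSs 18 were bound (90%), where all such genes gave 43.6%. Of 32 with 1 TSS 13 were bound (40.6%), where all such genes gave 26.1%. All of the unbound paralogues have a single annotated TSS. Most elongation factor genes have 2 or more TSSs, whereas most initiation factor genes have 1. What the number of TSSs contributes to the counts by role, or to the difference between elongation and initiation factors, was not tested.

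By chromosome, 4 of 5 genes were bound on 2L, where all protein-coding genes gave 30.6%, and 9 of 13 on 2R, where all gave 29.9%. On 3L 7 of 11 were bound, where all gave 30.2%, and on 3R 8 of 15, where all gave 30%. On X 2 of 7 were bound, where all gave 31.9%, and the 1 gene on chromosome 4 was bound. Bins of 100 kb in which IDR peaks cover at least 10% of the bases held 4 of the bound genes, eEF5, eIF4G1, eEF1delta and eIF5, which were among the 6 strongest. Outside such bins 27 of 48 eIF and eEF genes were bound (56.2%), where all protein-coding genes gave 29.5%, and the median multiple was 1.11.

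Promoter motifs were counted on both strands unless stated, from 250 bp before to 50 bp after any TSS. The DRE was in 15 of 52 eIF and eEF promoters (28.8%), in 30.4% of ribosomal protein promoters and in 10.2% of all protein-coding promoters. Among the bound genes it was in 35.5%, where all bound genes gave 20.6%, and among the unbound in 19%. Of 15 eIF and eEF genes with a DRE 11 were bound (73.3%), and of 37 without one 20 (54.1%), where all protein-coding genes gave 62.3% and 27.1%. The bound genes with a DRE were eIF4B, eEF1delta, eIF6, eIF3a, eIF3c, eEF1gamma, eIF4A, eIF1A, eIF2A, eIF3f1 and eIF3l, and the unbound were eIF2alpha, eIF2gamma, eIF2Bbeta and eIF4E6.

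Of the 17 DRE sites 16 were upstream of the TSS, a share that the search window, which reaches farther upstream than downstream, partly sets. At 5 bound genes a promoter DRE lay within 50 bp of the summit, at distances of 2 bp for eEF1gamma, 5 bp for eIF3a, 12 bp for eIF2A, 42 bp for eEF1delta and 43 bp for eIF3f1. The eIF4A summit window shown above holds a further DRE that lies beyond the promoter window. Counted within 50 bp of the summit, the DRE was thus present at 6 of 31 bound genes (19.4%), where all bound genes gave 6.84%. At eIF4B, with the second highest signal among initiation factor genes, the DRE was 62 bp from the summit and outside the window shown.

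The other motifs had shares near or below those of promoters at large. Core promoter motif 1, searched as GGTCACACT, was in 7.69% of eIF and eEF promoters and 6.78% of all. The E-box CAGCTG was in 9.62% and 22.3%, and the repeat GAGAGAG in 7.69% and 9.09%. TATAAA, searched on the sense strand in the 50 bp before the TSS, was in 7.69% and 12.7%. Among bound genes alone, motif 1 was in 6.45% of the eIF and eEF promoters and 13.7% of all. In the same sets the E-box was in 6.45% and 27.7%, the repeat in 6.45% and 8.54%, and TATAAA in 3.23% and 5.09%. The TCT initiator typical of ribosomal protein genes, searched as CTTTNT on the sense strand with its C within 5 bp of the TSS, was in 33.7% of ribosomal protein promoters. It was found at 1 of 52 eIF and eEF genes, eEF1alpha1 (1.92%), where all genes gave 2.12%. The search needs exact letters close to an annotated TSS, so a gene without a match may still have such an initiator. Each motif was counted whether or not it overlapped another. A match is a description of the letters and does not show that a factor is there.

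**Figure D5:**
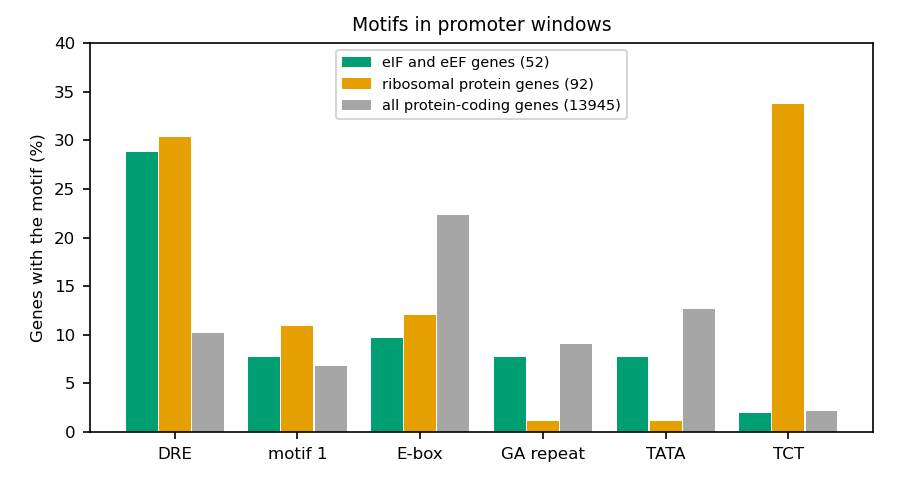
Share of genes (%, vertical axis) whose promoter window holds each motif, for the 52 eIF and eEF genes (green), the 92 ribosomal protein genes (orange) and all 13945 protein-coding genes (grey). The DRE is at 28.8% in eIF and eEF genes, 30.4% in ribosomal protein genes and 10.2% in all genes, and the TCT initiator is at 1.92%, 33.7% and 2.12% in the same sets.

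Other genes of protein synthesis were set beside these from lists by symbol. Of the ribosomal protein genes 76 of 92 were bound (82.6%), where all protein-coding genes gave 30.7%. The strongest in the IDR list were RpL5, RpL10 and RpS3A, at 41.9, 34 and 32.7 times the median. They lie in 100 kb bins with at least 10% IDR cover (28.2%, 12.7% and 24.1%), RpS3A on chromosome 4. Aminoacyl-tRNA synthetase genes were bound in 17 of 33 cases (51.5%), with ArgRS, GlnRS and ThrRS the strongest at 8.57, 5.35 and 4.08 times. The IDR cover of their bins was 13.8%, 2.92% and 1.42%. The synthetase set mixes cytoplasmic genes with mitochondrial ones, whose symbols end in -m and which made up most of its unbound genes. Cytoplasmic synthetase genes were not counted apart. For the sets as listed, the share of eIF and eEF genes lay between those of the ribosomal protein and synthetase sets. It was 87.5% at the elongation factor genes beside 82.6% at the ribosomal protein genes, differences that were not tested.

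A list of 34 further translation genes had 21 bound (61.8%), where all protein-coding genes gave 30.7%. The counts by role that follow rest on few genes each and were not tested against that share. All 5 termination and recycling genes were bound, among them HBS1, whose product rescues stalled ribosomes, at 6.16 times the median (5.99 in replicate 2 and 5.29 in replicate 3). Of the genes for regulators of the cap and the poly(A) tail 8 of 11 were bound. They included 4E-T, for a repressor that binds eIF4E, at 47.7 times (57.3 in replicate 2 and 35.4 in replicate 3). Also bound was me31B, for a helicase of repressed mRNAs, at 40.2 times (51.2 in replicate 2 and 27.7 in replicate 3). Both lie in heavily covered 100 kb bins, 4E-T on chromosome 4 with 19.3% IDR cover and me31B with 39.4%. What the density of peaks there adds to these signals was not tested. Co-factor and kinase genes were bound in 7 of 9 cases. Of 8 mitochondrial translation factor genes only mEFG1 was bound. The hypusine enzyme gene nero, whose product completes the modification that eEF5 carries, was not bound, and neither were the regulator genes Thor, cup and Pdcd4 or the kinase gene Gcn2.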

How the data were processed

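The data were 4 deposited peak lists on dm6 from ChIP-seq of 2 biological replicates in 1 group, per the labels. Each replicate and their pool were called against 1 control alignment, not analysed here, and the IDR list was derived from these, per the notes in the deposited text files. Neither aligner nor peak caller, nor any version, is named in the sources used here. The authors' deposited signal is on no stated scale and was used only within a list. The authors' −log10 q was 4.23 in all 5048 IDR peaks and did not rank them. Peak intervals and summit offsets were used as deposited; the summit was at or past the interval end in 1 IDR peak. Read depth is unknown.

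Genes and TSSs were from Ensembl release 115 and sequence from the RefSeq Release 6 genome, which share dm6 coordinates. Each IDR peak was matched to the strongest replicate summit within 250 bp (4955 matched in replicate 2 and 5005 in replicate 3), and the median signal of these matches was the unit in that replicate. Of 37 further translation symbols 3 were not found in the annotation. Shares, medians and motif searches were computed with Python 3.11.15, pandas 2.3.3 and numpy 2.4.6, and promoter assignment was tested on simulated data. The genes and lists were chosen with earlier results of these data known, so counts are given beside those of all protein-coding genes without a test. Genes were named by rule, namely every elongation factor, every paralogue, the 15 highest multiples with genes sharing their summits, every unbound gene and the 3 strongest of each comparison list. Further eIF3 and initiation factor genes, further promoter neighbours and the translation genes named by role were added after their values were seen. A further promoter sequence is not reported here. Alternatives were other promoter windows, interval overlap, stronger or relaxed lists, nearest TSS only, merged intervals, each replicate alone and other motif windows.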

Additional observations from a re-analysis of the deposited data

How the results depend on the processing

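Of 91 alternative values 67 stayed near the reported one, 24 moved and 0 reversed. A count stayed near if it was within a factor of 1.5, so a sizeable change can be counted as near. A motif share had to lie within the Wilson confidence interval of the reported share. A median had to move by less than the SD of the single-replicate values. The count of bound eIF and eEF genes, 31, was 27 to 33 under the alternatives other than the stronger part of the IDR peaks (2524 peaks) and the relaxed pooled list, which gave 36. The stronger part bound 20 eIF and eEF genes, 13 of them initiation factor genes, 11 other translation genes and 2513 protein-coding genes. The elongation factor count remained 7. In that part 38.5% of eIF and eEF genes were bound, where all protein-coding genes gave 18%. Ribosomal protein genes gave 56.5% (52 genes) and aminoacyl-tRNA synthetase genes 36.4% (12 genes). The relaxed pooled list bound 6463 protein-coding genes. When a summit counted for the nearest TSS alone, 9 aminoacyl-tRNA synthetase genes were bound. The window of 200 bp lost eIF4A, eIF4EHP, eIF4H1 and eIF5, and that of 1000 bp gained eIF2Bbeta. Replicate 3 alone gained eIF2gamma and lost eIF3b, eIF3k and eIF4E1, and replicate 2 alone gained eIF2Balpha and eIF2gamma.

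The median multiple of 1.3 was 1.11 with 200 bp, 1.44 with 1000 bp or interval overlap, 1.91 in the stronger part, 1.09 in the relaxed list, 1.21 with the nearest TSS only, 1.23 with 1 summit per merged interval, and 1.05 to 1.13 in single replicates. The median position of -69 bp was -41 with 200 bp, -75.5 in the stronger part, -57.5 in the relaxed list, -44 with the nearest TSS only, and -72 to -68 in single replicates. Within 50 bp of the summit the shares of motif 1, the E-box and the GA repeat were 0%, and with 1 TSS per gene the GA repeat was at 1.92%. The causes were not tested. No paired analysis was possible because there is 1 group. With 2 replicates the spread between libraries rests on 1 difference, and depth is unknown, so a missing summit is not evidence of absence.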

Other observations

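The core ATCGAT, its own reverse complement and part of the DRE, was looked for after the sequences had been seen. It lay within 50 bp of the summit at 9 of 31 bound eIF and eEF genes (29%), where all bound protein-coding genes gave 16.2% and bound ribosomal protein genes 17.1%. These were the 6 genes with a full DRE there together with eEF2, eIF4G1 and eIF4G2. The DRE end TATCG or its reverse complement, also searched after values were seen, was within 50 bp at 15 of 31 genes (48.4%), where all bound genes gave 31.5% and bound ribosomal protein genes 34.2%.

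The 101-base windows around the summits had a median GC content of 37.6% at the bound eIF and eEF genes, where all bound protein-coding genes had 31.7%. Within the set the range was wide. It was lowest at eIF4EHP, with 19.8%, and highest at eIF3f1, with 55.4%.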
